A study of Homo sapiens with 4 samples.

Results

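Ribosomal protein genes encode the protein part of the cytosolic ribosome, and their chromatin was examined in ChIP-seq data of HCT116 cells, a human colorectal carcinoma line. The genes were taken by symbol, namely RPL or RPS followed by digits and an optional A, L or X, together with RPLP0, RPLP1, RPLP2 and RPSA, without pseudogenes and without the RPS6K kinase genes. In the RefSeq annotation 81 of 19392 protein-coding genes fitted this rule, 49 with symbols of the large (RPL) and 32 with symbols of the small (RPS) subunit. Of the 81 genes, 35 were named by at least 1 enriched region in either peak list and 46 by none. The H3K27ac list gave 49 entries of region and gene, in 48 of 15789 regions and at 33 genes. The HSF1 list gave 9 entries, in 9 of 13127 regions and at 4 genes.

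A ribosome joins a large subunit, which forms peptide bonds, to a small subunit, which reads the messenger RNA, and each subunit is built from ribosomal RNA and many proteins. The genes lie scattered over the chromosomes, are transcribed by RNA polymerase II in every growing cell, and typically start within a run of pyrimidines. This run, the terminal oligopyrimidine (TOP) tract, places their messenger RNAs under the control of mTOR and LARP1. H3K27ac, the acetylation of lysine 27 of histone H3, marks active promoters and enhancers. HSF1 switches on chaperone genes after heat shock and binds repeats of a short element with GAA units in alternating orientation.

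The H3K27ac IP and the HSF1 IP were each sequenced once with an input of its own, so the 4 libraries formed 4 groups of 1 library. All groups were the same cell line, grown in McCOY's 5A medium with bovine serum and fixed with formalin, with no treatment and no second condition. Each region had been called in an IP library over its input, and no list of the inputs alone was analysed here. With 1 library per group no value has a replicate error and no difference below was tested. Intervals are exact 95% Clopper-Pearson intervals of a share, or exact order-statistic intervals of a median, and cover counting error only. For a count of 0 the share allowed is instead 3 divided by the number examined, an approximate limit below the exact one. For 0 of 81 genes it is 3.7%, where the exact upper limit is 4.45%. The sources used here gave no sequencing depth, and only the tags inside regions were known, with a median of 24 tags in H3K27ac regions and 20 tags in HSF1 regions. Of 14 colonic epithelial markers 9 had an H3K27ac region of any class and 5 a promoter-class one, beside 28.5% and 12.1% of all protein-coding genes. Among the 5 were KRT8, KRT18 and CDH17, but KRT8 and KRT18 were named by the same promoter-class region. EPCAM, CDX1, CDX2, VIL1 and LGALS4 had no H3K27ac region. A region of any class named 1 of 5 leukocyte markers (PTPRC), 1 of 4 fibroblast markers (DCN) and 1 of 3 endothelial markers (VWF), and a promoter-class region named 0, but these lists were too short to be told apart from all protein-coding genes.

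The sequence at the start was shown first because it was shared by most of the genes, with or without an H3K27ac region. RefSeq promoter windows (GRCh38.p14) were listed for 64 of the 81 genes, with 79 starts in all. Each line below gives the last 30 bases before the listed start and the first 20 bases from it, and capitals mark the run of C and T that begins at the start. The first 7 genes had a promoter-class H3K27ac region and a run, and the last 4 had a run but no region. The next pair after the first 7, RPL9 and RPS29, had a region but no run at the listed start. Listed starts were not matched to the hg19 starts from which regions were measured, so a window may show another start of the gene. For RPS29 in particular, the window says nothing certain about the start beside its region.
RPL35A: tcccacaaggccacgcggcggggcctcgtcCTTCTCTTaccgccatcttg
RPL41: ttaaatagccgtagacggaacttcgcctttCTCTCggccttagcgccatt
RPS27: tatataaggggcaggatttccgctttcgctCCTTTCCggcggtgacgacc
RPS6: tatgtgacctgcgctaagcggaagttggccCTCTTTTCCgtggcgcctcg
RPS25: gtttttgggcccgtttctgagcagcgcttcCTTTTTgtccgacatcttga
RPL38: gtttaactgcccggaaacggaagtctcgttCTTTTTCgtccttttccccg
RPL26: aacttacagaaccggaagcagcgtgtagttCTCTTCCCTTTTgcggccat
RPL9: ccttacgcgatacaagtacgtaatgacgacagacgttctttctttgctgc
RPS29: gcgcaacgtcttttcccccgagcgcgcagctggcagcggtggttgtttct
RPL11: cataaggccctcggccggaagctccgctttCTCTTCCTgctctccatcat
RPLP0: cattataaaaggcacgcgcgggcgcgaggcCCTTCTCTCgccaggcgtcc
RPLP1: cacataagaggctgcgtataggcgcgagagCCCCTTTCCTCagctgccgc
RPLP2: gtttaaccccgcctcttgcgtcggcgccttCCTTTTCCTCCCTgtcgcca

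On GRCh38.p14 these windows, with their strand, were RPL35A chr3:197950160-197950209 (plus), RPL41 chr12:56116603-56116652 (plus), RPS27 chr1:153990732-153990781 (plus), RPS6 chr9:19380217-19380266 (minus), RPS25 chr11:119018324-119018373 (minus), RPL38 chr17:74203648-74203697 (plus), RPL26 chr17:8383174-8383223 (minus), RPL9 chr4:39458903-39458952 (minus), RPS29 chr14:49598691-49598740 (minus), RPL11 chr1:23691776-23691825 (plus), RPLP0 chr12:120201092-120201141 (minus), RPLP1 chr15:69452788-69452837 (plus) and RPLP2 chr11:809937-809986 (plus). Of RPL11 the start with the longer run of its 2 listed starts is shown.

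A start at C followed by C or T over 5 or more bases in all was found at 46 of the 64 genes (71.9%, interval 59.2 to 82.4%), whereas it was found at 933 of 15425 other protein-coding genes (6.05%). Over all 15489 genes with a window the share was 6.32%. The longest run among the windows shown, 13 bases, was at RPLP2, a protein of the ribosomal stalk. The run was found at 16 of 24 genes with a promoter-class H3K27ac region (66.7%, interval 44.7 to 84.4%) and at 30 of 40 genes without a region (75%, interval 58.8 to 87.3%), and these intervals overlapped widely. Where the run was allowed to begin within 5 bases of the listed start, it was found at 53 of 64 ribosomal protein genes (82.8%) and at 26.1% of the others. By contrast, the proteins of the mitochondrial ribosome, which translate the mitochondrial genome, had the run at 6 of 69 genes (8.7%). Among factors of translation, the run was at 7 of 28 initiation factor genes (25%, interval 10.7 to 44.9%). It was also at 3 of 9 elongation and termination factor genes (33.3%, interval 7.49 to 70.1%), namely EEF1A1, EEF1B2 and EEF2. Both intervals overlapped that of the mitochondrial ribosome (3.26 to 18%), and the second also that of the ribosomal protein genes, so no order among these lists was settled.

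**Figure D1:**
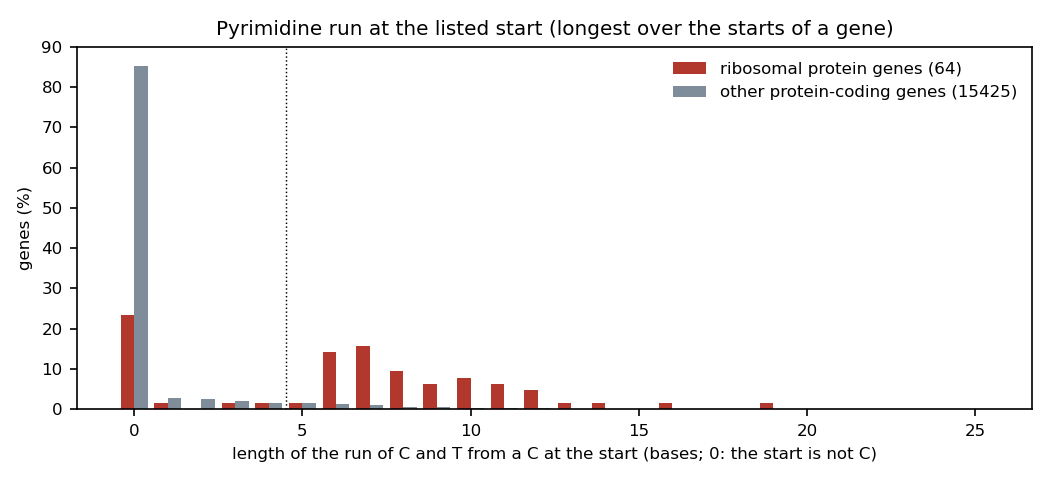
Share of genes (vertical axis, percent) by the length in bases of the run of C and T from a C at the listed start (horizontal axis), for 64 ribosomal protein genes in red and 15425 other protein-coding genes in grey, taking the longest run over the starts of a gene. The dotted line marks the limit of 5 bases, and beyond it the red bars are highest at 6 and 7 bases (14.1% and 15.6% of genes). At 0, 23.4% of the ribosomal protein genes and 85.3% of the other genes did not start at C.

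Every ribosomal protein gene with an H3K27ac region had one in the promoter class, which the lists gave to regions with a midpoint within 2 kb of the start. These were 33 of 81 genes (40.7%, interval 29.9 to 52.2%), and 12.1% of all protein-coding genes had such a region. For a region of any class the share was again 40.7% of the ribosomal protein genes, beside 28.5% of all protein-coding genes. Among genes with any region, the promoter class was present at 33 of 33 ribosomal protein genes (100%, interval 89.4 to 100%) and at 2310 of 5495 other genes (42%, interval 40.7 to 43.4%). By class, 39 of the 49 entries were promoter (79.6%), 9 upstream and 1 intergenic, and no entry was in an intron or exon, which held 33.4% and 1.05% of all H3K27ac regions. These class shares are not independent of gene length, because a short gene leaves little room for a region inside it beyond 2 kb from the start. The median gene length over the promoter-class entries was 5036 bp, against 28650 bp at other genes, and no allowance was made for it. The large subunit had 21 of 49 genes with a promoter-class region (42.9%, interval 28.8 to 57.8%) and the small subunit 12 of 32 (37.5%, interval 21.1 to 56.3%), a difference smaller than either interval.

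**Figure D2:**
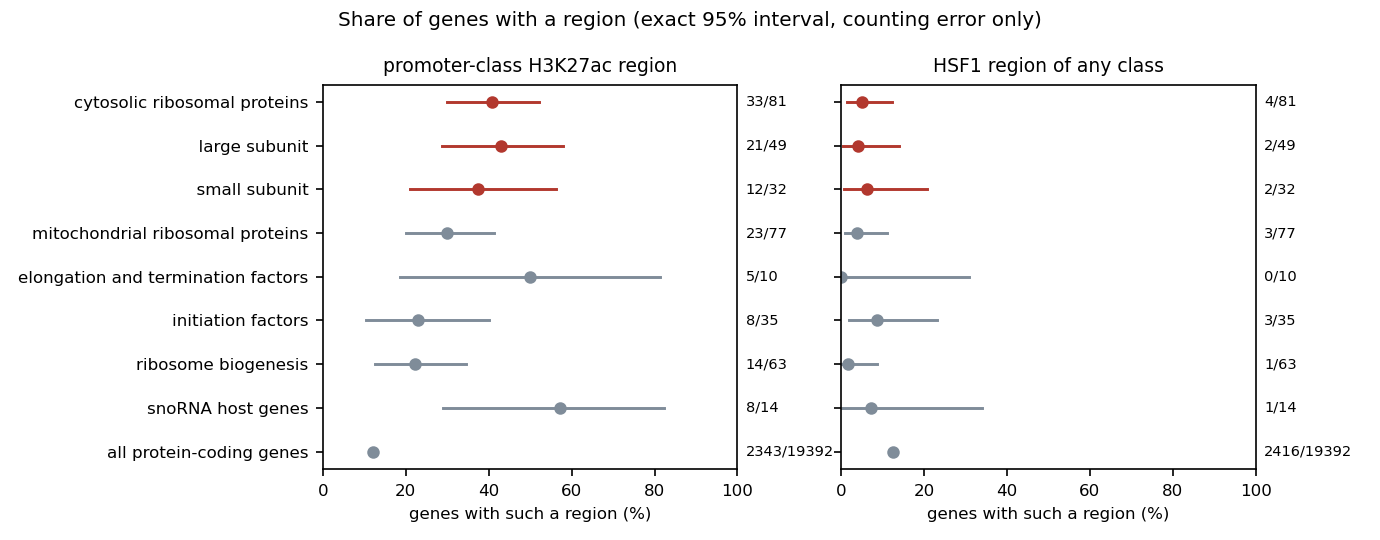
Share of genes (horizontal axes, percent) with a promoter-class H3K27ac region on the left and with an HSF1 region of any class on the right, for the cytosolic ribosomal proteins and their subunits in red and for related gene lists and all protein-coding genes in grey. Points are shares, lines exact 95% intervals, and counts stand at the right of each panel. Ribosomal protein genes stood at 40.7% on the left and at 4.94% on the right, against 12.1% and 12.5% of all protein-coding genes.

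In the large subunit, RPL35A had the highest fold enrichment of IP over local background, 12.91-fold with 40 tags in a region of 1537 bp that covered the start (hg19 chromosome 3, 197676945 to 197678481). RPL35A is among the genes mutated in Diamond-Blackfan anemia, an inherited failure of red cell production. RPL41, which encodes the smallest protein of the ribosome, had 28 tags at 9.54-fold from 278 to 1469 bp downstream of its start. Much of that gene lay inside the region, 79.2% of its 1336 bp. RPL9 had 30 tags at 8.49-fold. RPL38, known in mouse for the translation of Hox messenger RNAs, had 44 tags at 7.69-fold in a region that began 31 bp downstream of the start. The regions of RPL35A, RPL41 and RPL9 also named the neighbouring genes IQCG, ZC3H10 and LIAS, so their tags cannot be told apart between the 2 genes of each pair.

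The lowest values of the promoter class were in the large subunit too. RPL13A, a subunit protein that is also released to repress the translation of selected messenger RNAs, had 38 tags but only 3.85-fold enrichment. RPL26, which lies near the exit of the peptide tunnel, had 35 tags at 4.73-fold. RPL30 had 5.05-fold and RPL3, a protein of the peptidyl transferase centre, 5.26-fold with 38 tags. RPL13 had 42 tags at 5.45-fold. Each of these 5 regions held 35 or more tags, above the median of 24 tags in all H3K27ac regions. This says little about tags and fold, because a region of low fold and few tags could not reach the score of 50 that the list required. RPL26, RPL30 and RPL13 also lay on chromosomes 17, 8 and 16, where the median H3K27ac region held 36, 33 and 26 tags. The widest regions of this subunit were at RPL30 (2977 bp, 74 tags) and RPL21 (2252 bp, 44 tags), and RPL8, close to the peptidyl transferase centre, followed in tags with 49.

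In the small subunit, RPS7 led with 10.1-fold enrichment and 43 tags in a region from 41 to 2050 bp downstream of its start (chromosome 2, 3622890 to 3624899). Its product binds MDM2, the ubiquitin ligase of p53. RPS27 had 9.54-fold enrichment with 20 tags, but this region lay wholly upstream, ending 181 bp before the start. RPS6, the subunit protein phosphorylated by S6 kinases downstream of mTOR, had 8.98-fold enrichment with 22 tags. RPS25, a protein needed for initiation at several viral internal entry sites, had 7.86-fold with 47 tags over the start. That region also named the neighbouring gene TRAPPC4, so its tags cannot be told apart between these genes. RPS13 had 7.69-fold with 22 tags. RPS29, another Diamond-Blackfan anemia gene, had the widest region of all 33 genes, 3709 bp with 75 tags at 7.38-fold, from 13 to 3721 bp downstream of its start. The deposited false discovery rate, with a median of 15.4% over all entries of ribosomal protein genes, was highest at regions named here, 58.1% at RPS29, 48.2% at RPL35A, 43.9% at RPS25, 41.8% at RPL5, 38.3% at RPL21 and 36.5% at RPS7. Tags and fold enrichment ordered the genes differently, with RPS27 high in fold on 20 tags and RPS29 highest in tags.

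The small groups within the ribosome were split. RPL5 and RPL11 carry the 5S ribosomal RNA into the large subunit and restrain MDM2 when ribosome assembly fails. RPL5 had regions of 7.81-fold (43 tags) and 6.17-fold (17 tags), whereas RPL11 had none. None of the stalk genes RPLP0, RPLP1 and RPLP2, whose products recruit elongation factors, had a region in either list. Of 18 genes linked to Diamond-Blackfan anemia 8 had a promoter-class region, RPL5, RPL26, RPL31, RPL35A, RPS7, RPS26, RPS27 and RPS29, a share (44.4%, interval 21.5 to 69.2%) close to that of all ribosomal protein genes. The paralogs RPL3L, RPL10L, RPL39L and RPS27L had no region, but 4 genes are too few to be told apart from the 28.5% of all protein-coding genes. Of 4 paralogs outside the symbol rule, RPL22L1, RPL7L1 and RPL36AL had an H3K27ac region, of the promoter class only at RPL36AL, and RPL26L1 had none. FAU, which encodes a ribosomal protein fused to a ubiquitin-like protein and also falls outside the rule, had no region.

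The 48 genes without an H3K27ac region included RPL7, RPL7A, RPL10, RPL11, RPL12, RPL15, RPL23A, RPL27, RPL32, RPL35, RPL39, RPLP0, RPLP1 and RPLP2 in the large subunit. In the small subunit they included RPS2, RPS3, RPS3A, RPS4X, RPS14, RPS15, RPS19, RPS27A and RPS28. Regions named only for a neighbour were rare here: 17 had another gene starting within 1 kb in RefSeq and 1 of these neighbours had an H3K27ac region. That neighbour was ARPC5L at RPL35, with 24 tags at 10.68-fold in an exon, 6541 bp from its own start. A missing region says that no enrichment passed the threshold of the list, whose smallest region held 15 tags, not that the mark is absent. Most human ribosomal protein genes have processed pseudogenes of near-identical sequence, and the handling of reads that match several copies was not stated, so values of such genes are uncertain.

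Set beside other promoter-class regions, those of ribosomal protein genes had a larger median width, a higher median tag number and about the same fold enrichment. The median width was 1537 bp (interval 1213 to 1720, n = 39 entries), against 1198 bp (1174 to 1221, n = 2572) at other protein-coding genes. The median tag number was 35 (24 to 40) at ribosomal protein genes, against 25 (24 to 25) at the others, and the median fold enrichment was 6.79 (6.17 to 7.38), against 6.73. For tags and for fold, the interval of the ribosomal protein genes held the median of the other genes. The tags per kb differed little, with medians of 21.8 and 20.7. In counts, 20 of 39 regions were 1500 bp or wider (51.3%) and 23 held 30 or more tags (59%), against 28.5% and 36.2% of the other regions. Within the ribosome, the medians were 37 tags and 6.17-fold in 24 entries of the large subunit and 24 tags and 7.38-fold in 15 entries of the small subunit, with overlapping intervals for tags and for fold.

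**Figure D3:**
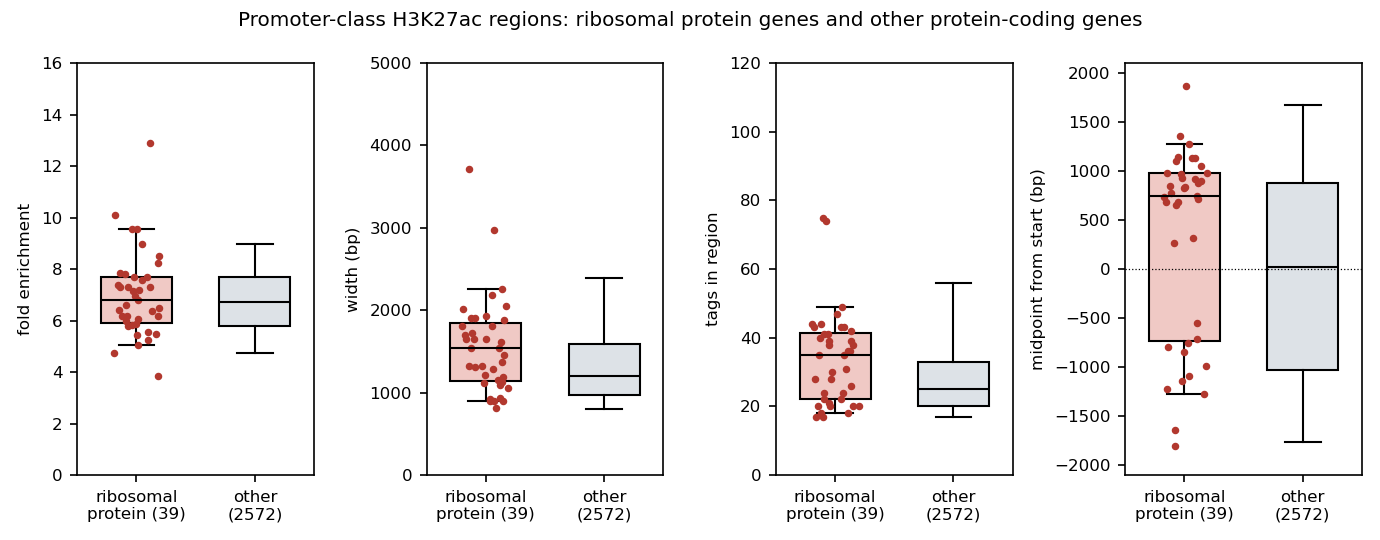
Fold enrichment, width (bp), tags and distance of the region midpoint from the start (bp, positive downstream) of promoter-class H3K27ac regions, with 39 entries of ribosomal protein genes in red and 2572 of other protein-coding genes in grey. Boxes are quartiles with the median, whiskers the 5th and 95th percentiles, and red points single entries; values of the other genes beyond the whiskers are not drawn. The red medians stood higher in width (1537 bp against 1198 bp) and tags (35 against 25), not in fold (6.79 against 6.73). The interval of the red tag median, 24 to 40, held the median of the other genes. No red point lay within 250 bp of the start in the last panel.

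Tag numbers also moved with the chromosome. The median over all H3K27ac regions was 36 tags on chromosome 17, 33 on chromosome 8, 29 on chromosome 10 and 26 on chromosome 16, and between 19 and 23 on the other chromosomes that carry ribosomal protein genes. These 4 chromosomes, parts of which are gained in HCT116, held 9 of the 39 entries, with a median of 42 tags (35 to 49), against 31 (30 to 32) in 602 entries of other genes. On the remaining chromosomes 30 entries of ribosomal protein genes had a median of 29 tags (22 to 39) and 1350 bp (1151 to 1646), against 23 tags (23 to 24) and 1134 bp (1111 to 1163) in 1970 entries of other genes. The direction for tags was therefore the same in either set, although the interval on the remaining chromosomes reached below the value of the other genes. Fold enrichment went opposite ways, with a median of 5.84 (5.05 to 6.79) at ribosomal protein genes, against 6.17 at other genes, on these 4 chromosomes, and 7.24 (6.41 to 7.69), against 6.73, on the remaining ones, and both intervals held the value of the other genes.

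The regions tended to lie on the transcribed side of the start. Of 39 entries 27 had their midpoint downstream (69.2%, interval 52.4 to 83%), against 1290 of 2572 at other genes (50.2%, interval 48.2 to 52.1%). By subunit, the midpoint was downstream in 19 of 24 entries in the large subunit (79.2%, interval 57.8 to 92.9%) and 8 of 15 in the small subunit (53.3%, interval 26.6 to 78.7%), and these intervals overlapped. The start itself was covered in 9 of 39 entries (23.1%), against 23.2% at other genes, nearly the same share. Wholly downstream lay 18 entries (46.2%, interval 30.1 to 62.8%), against 35.5%, and wholly upstream 12 (30.8%), against 41.3%. An upstream edge within 100 bp after the start was found in 9 entries (23.1%, interval 11.1 to 39.3%), at RPL3, RPL19, RPL21, RPL26, RPL38, RPL9, RPS7, RPS20 and RPS29, against 8.32% (7.28 to 9.46%) at other genes. A midpoint within 250 bp of the start occurred in 0 of 39 entries, which allows a share of up to 7.69%, against 5.87% at other genes, so no difference was detectable.

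**Figure D4:**
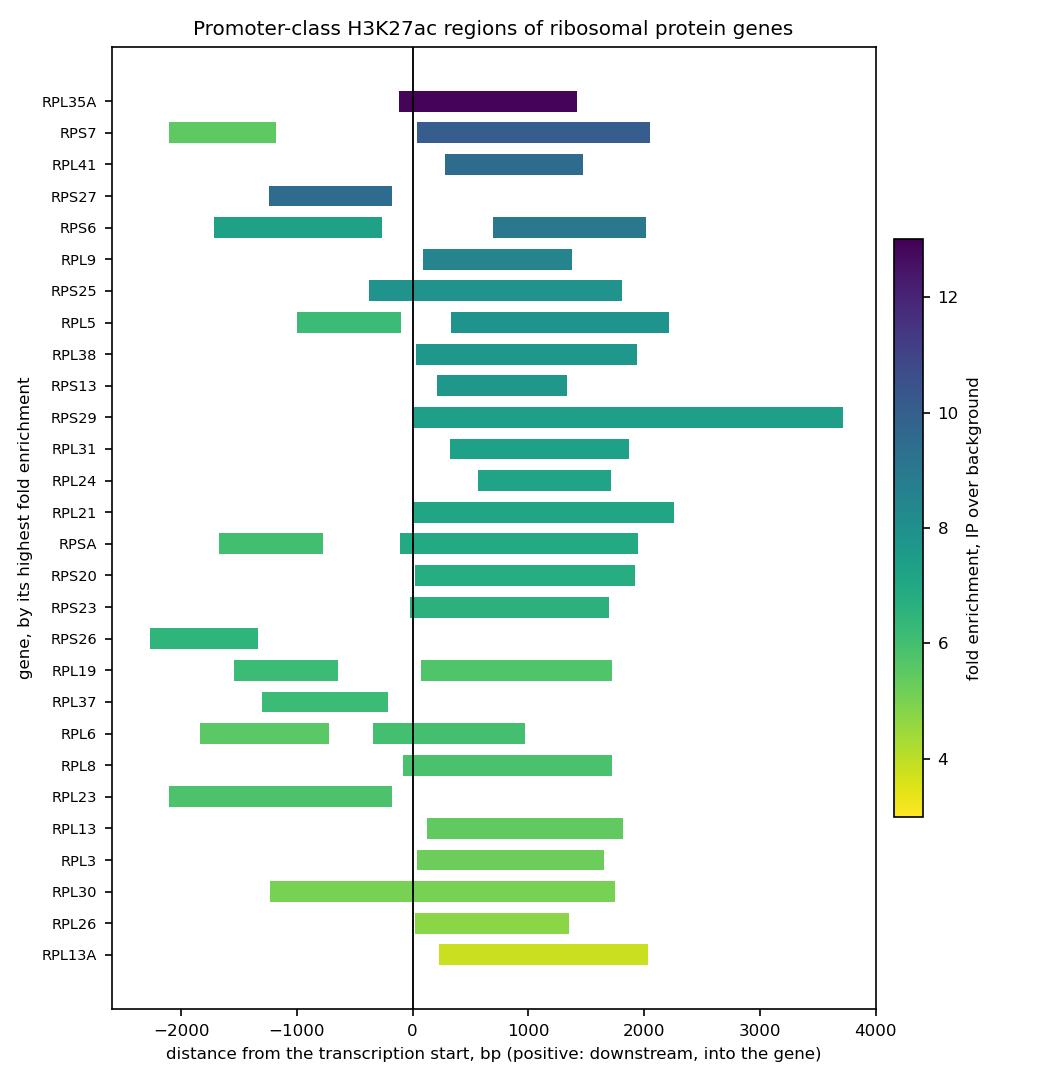
Extent of each promoter-class H3K27ac region (bars) along the direction of transcription, as distance from the start in bp (horizontal axis, start at the vertical line), for 28 of the 33 ribosomal protein genes with such a region, those named in the text, ordered by their highest fold enrichment (colour scale, linear). Of the 34 bars 17 lie wholly to the right of the line, 7 cross it and 10 lie wholly to the left, RPS29 reaches 3721 bp, and RPL5, RPL19, RPS6 and RPS7 have a bar on either side with the start uncovered between them.

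The genes are short, and a larger part of each lay inside its region. The median gene length over the entries was 5036 bp, against 28650 bp at other genes, and a median of 23.9% of the gene lay within the region, against 0.885%. Besides RPL41, the regions held 68.9% of RPS25, 65.7% of RPL8 and 45.7% of RPL30. The summit, the position of the highest tag density, lay at a median of 557 bp (218 to 783) downstream of the start, against 38.5 bp (-217 to 184) at other genes.

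At 4 of the 33 genes the start lay uncovered between 2 promoter-class regions, and 5.63% of all protein-coding genes with a promoter-class region showed this. At RPS6 the upstream region (7.3-fold, 28 tags) ended 262 bp before the start and the downstream region (8.98-fold, 22 tags) began 695 bp after it, leaving 956 bp without a call. At RPS7 the gap was 1220 bp, with 18 tags at 5.49-fold upstream and 43 tags at 10.1-fold downstream. At RPL5 it was 433 bp and at RPL19 718 bp, with 17 tags upstream in each and 43 and 36 tags downstream. The downstream region held more tags at RPL5, RPL19 and RPS7 and fewer at RPS6. RPL6 and RPSA had a pair of promoter-class regions too, but in these the start was covered. In all 6 of 33 genes (18.2%) had 2 such regions, against 240 of 2310 other genes (10.4%). With only 4 and 6 genes, neither the uncovered starts nor the pairs of regions were told apart from the shares over other genes, and no difference was tested.

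The 250 bases upstream of RPS6 and RPS7 are shown because the start of each lay between its regions. Capitals mark matches, on either strand, to CCGGAAG, an ETS family motif, and to GGGCGG, the core of an SP1 motif.
RPS6: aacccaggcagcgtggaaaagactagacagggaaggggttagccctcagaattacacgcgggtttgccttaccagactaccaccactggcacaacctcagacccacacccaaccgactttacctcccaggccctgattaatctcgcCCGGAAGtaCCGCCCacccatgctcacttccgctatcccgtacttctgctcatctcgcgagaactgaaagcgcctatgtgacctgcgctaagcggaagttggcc
RPS7: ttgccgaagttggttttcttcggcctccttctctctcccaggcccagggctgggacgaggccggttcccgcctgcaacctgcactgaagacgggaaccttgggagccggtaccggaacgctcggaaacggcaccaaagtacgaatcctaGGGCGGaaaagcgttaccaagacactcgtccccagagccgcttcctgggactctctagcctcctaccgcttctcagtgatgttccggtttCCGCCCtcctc
In RPS6 (GRCh38.p14 chr9:19380237-19380486, minus strand) the ETS match began at position -104 and the SP1 match at -95, counted from the start. In RPS7 (chr2:3575010-3575259, plus strand) SP1 matches began at -101 and -11, and no ETS match was in this window. Over windows of 250 bases before and 50 bases after the start, CCGGAAG was found at 23 of 64 ribosomal protein genes (35.9%, interval 24.3 to 48.9%), against 16.7% of 15425 other genes. The share was no lower in related lists, 43.5% (31.6 to 56%) of 69 mitochondrial ribosome genes and 44.4% (30.9 to 58.6%) of 54 ribosome biogenesis genes. Among ribosomal protein genes it was found at 7 of 24 genes with a promoter-class region (29.2%) and at 16 of 40 genes without a region (40%), against 25.9% of 1898 other genes with such a region. GGGCGG was found at 59.4% of the ribosomal protein genes, against 65%, the E-box CACGTG at 4 genes (6.25%), against 11%, and AAGATGG, a YY1 motif, at 8 genes (12.5%), against 7.92%. The CCAAT box was found at 23 genes (35.9%), against 42.4%, and TATAAA at 6 (9.38%), against 12.4%. These matches describe letters in the windows and not bound sites.

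Outside the promoter class, 9 entries were upstream, among them entries at RPL8, RPL9, RPL13A, RPL23, RPL24 and RPS6. RPL13A had 20 tags at 5.61-fold, at -9141 bp from its start. RPL24, a protein at the joint between the subunits, had entries at -6009 bp (26 tags, 6.33-fold) and -17625 bp (39 tags, 7.31-fold), and the farther one held more tags than its promoter-class region (26 tags, 7.18-fold). The intergenic entry was 114279 bp downstream of the start of RPS23, with 30 tags at 6.92-fold. An assignment over such a distance is by the nearest gene and not a measured contact. Small nucleolar RNA genes and other neighbours were common within these loci, and 17 of the 39 promoter-class entries also named another gene.

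HSF1 regions were few at ribosomal protein genes and none was near a start. Only 1.46% of all HSF1 regions were of the promoter class. Chaperone genes also had their nearest HSF1 region far from the start, for example 74039 bp at HSPB1, 147052 bp at HSPA8, 528470 bp at HSP90AA1 and 1055243 bp at HSPA1A. A lack of HSF1 regions near the start was thus not particular to ribosomal protein genes. An HSF1 region of any class named 4 of 81 genes (4.94%, interval 1.36 to 12.2%), and 12.5% of all protein-coding genes had one, with no allowance for gene length. In the promoter class there were 0 of 81, which allows a share of up to 3.7%, and 0.48% of all protein-coding genes had one, and a difference was not detectable with this number of genes. RPL15 had the nearest entry, 16 tags at 4.87-fold with its midpoint at -7.36 kb and its nearer edge 6863 bp from the start (chromosome 3, 23950186 to 23951172). RPS3A, a protein of the small subunit platform, had 15 tags at 3.99-fold, at -12.6 kb. The 3 entries of RPS29 were intergenic, 237, 311 and 869 kb downstream of its start, with 22, 29 and 16 tags at 4.74-fold, 4.9-fold and 5.32-fold. The 4 entries of RPL21 lay on chromosome 10, between -28.4 and 107 kb from a start that the HSF1 list put there, whereas RefSeq and the H3K27ac list placed RPL21 on chromosome 13. Without these entries 3 genes had an HSF1 region. A heat shock element of 3 such units, searched on both strands, was found in 0 of 64 promoter windows, which allows a share of up to 4.69%, against 0.545% of other genes, while a pair of units, GAANNTTC, was found in 6 of 64 (9.38%), against 7.4%.

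The H3K27ac regions of these genes did not meet HSF1 regions. Of 48 regions 0 shared 1 bp or more with an HSF1 region, which allows up to 6.25%, and 41 of all 15789 H3K27ac regions did (0.26%). Among the 33 genes with a promoter-class H3K27ac region, RPL37, a zinc finger protein of the large subunit, had the nearest HSF1 region, with its edge 7.01 kb from the start, followed by RPS25 at 13.3 kb, RPL30 at 33.5 kb and RPL13 at 33.6 kb. Over these 33 genes the median distance from the start was 279 kb (209 to 603), against 289 kb (270 to 308) over 2309 other such genes, and 4 of 33 (12.1%) and 9.57% lay within 50 kb. The distances thus resembled those of other genes within the interval of the median.

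**Figure D5:**
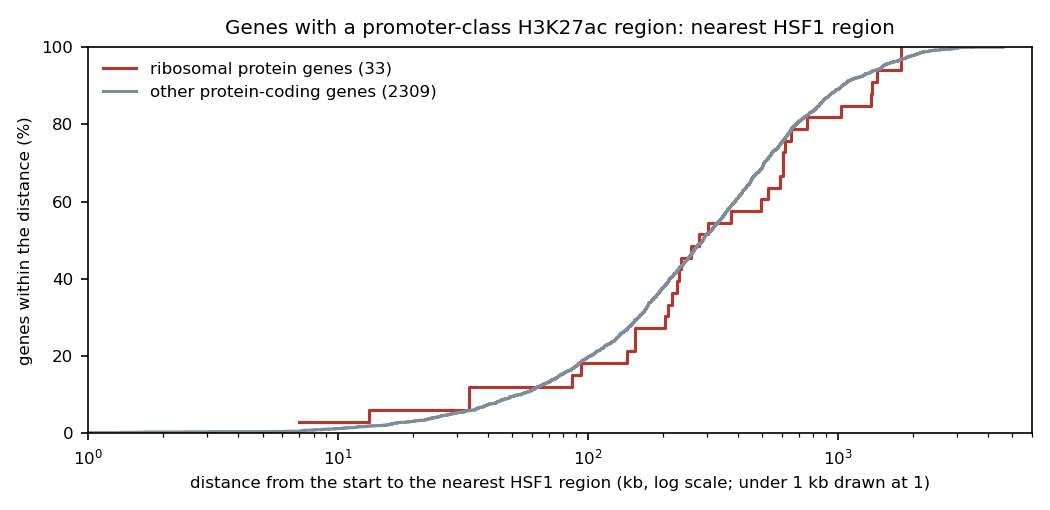
Cumulative share of genes (vertical axis, percent) by the distance from the start to the nearest HSF1 region (horizontal axis, kb on a log scale), for 33 ribosomal protein genes in red and 2309 other protein-coding genes in grey, all with a promoter-class H3K27ac region. The curves run close to each other, with medians of 279 kb in red and 289 kb in grey, and the red curve begins at 7.01 kb, RPL37.

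The other genes of protein synthesis gave a scale for these shares. Promoter-class H3K27ac regions were found at 23 of 77 genes of the mitochondrial ribosome (29.9%, interval 20 to 41.4%), 8 of 35 initiation factor genes (22.9%, interval 10.4 to 40.1%), 5 of 10 elongation and termination factor genes (50%, interval 18.7 to 81.3%) and 14 of 63 ribosome biogenesis genes (22.2%, interval 12.7 to 34.5%), beside 12.1% of all protein-coding genes. Each of these intervals overlapped that of the ribosomal protein genes. The highest values were 10.1-fold at MRPL15 of the mitochondrial large subunit, 8.79-fold at EIF5, which activates GTP hydrolysis at the start codon, 7.86-fold at EEF1B2, an exchange factor of elongation factor 1A, and 8.98-fold at NOP58, a core protein of box C/D small nucleolar particles. All were below the 12.91-fold of RPL35A. The host genes of small nucleolar RNAs, which often begin with a TOP tract as well, had a promoter-class region at 8 of 14 (57.1%, interval 28.9 to 82.3%), led by SNHG5 at 7.69-fold. Width and tags differed among these lists. The median was 1574 bp (1166 to 2499) and 32 tags (20 to 58) in 9 entries of initiation factors, close to the ribosomal protein genes, 1305 bp (1104 to 1763) and 28 tags (23 to 35) in 15 entries of ribosome biogenesis, and 1103 bp (970 to 1193) and 22 tags (20 to 26) in 23 entries of the mitochondrial ribosome. In growth control, 2 of 13 genes listed had a promoter-class region (15.4%, interval 1.92 to 45.4%), near the 12.1% of all protein-coding genes. These were RPTOR and RPS6KB1, components of mTOR signalling to the ribosome, at 5.72-fold and 5.23-fold, whereas MYC, MTOR, RHEB and LARP1 were among those without one.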

How the data were processed

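Antibodies against H3K27ac and HSF1 were used for ChIP-seq of untreated HCT116 cells, each with its own input. Peaks were detected by the study with MACS, comparing IP and input, and per the labels Bowtie2 2.2.7 and FastQC were used on hg19. Each deposited list held 1 row per peak and RefSeq transcript. The deposited tag counts were whole and not normalized, and the deposited score was 10 times -log10 of the p-value of a peak, at least 50 in the H3K27ac and 30 in the HSF1 list. The fold enrichment deposited by the authors was a ratio of IP tags to local background, and its values moved in steps. The deposited false discovery rate was a percent, from 9.09 to 58.1 over the H3K27ac entries of ribosomal protein genes, and was not used for selection.

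Rows were reduced to 1 entry per region and symbol with 1 start per gene, the start with the most promoter-class regions and then the shortest mean distance. Edges and summits were measured along the strand. The gene universe was 19392 protein-coding RefSeq genes (GRCh38.p14), from which sequences and neighbours, but no region positions, were taken. Promoter windows of 17 of the 81 genes were not used here. Genes named with values were those with an HSF1 region, the 12 of highest and 5 of lowest fold enrichment, the 3 widest and the 3 with most tags in the promoter class, RPL5, RPL11, RPLP0, RPLP1, RPLP2 and RPS6, and the 3 of highest fold enrichment in other lists, and some genes that met this rule are not reported here. Others, such as genes with uncovered starts or the nearest HSF1 regions, were chosen after their values were seen. The members, gene lists and comparisons were chosen with earlier results of these data known. The steps were tested on simulated data. The work ran in Python 3.11.15 (matplotlib 3.10.9, scipy 1.17.1, pandas 2.3.3, numpy 2.4.6). Alternatives covered thresholds, classes, promoter definitions, members, chromosomes and overlap.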

Additional observations from a re-analysis of the deposited data

How the results depend on the processing

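No paired analysis was possible because each group held 1 library and no test was run. Of 39 alternatives 27 kept the value within 1.5 times of a count or within the interval of a median, and 12 moved it. With scores of at least 100, the genes with an H3K27ac region and with a promoter-class one fell to 12 each, against 33, beside 1.98% of all protein-coding genes, the HSF1 genes to 0, and the median width and tags became 1848 bp and 43. With fold enrichment of at least 7, the same counts were 18 and 17, beside 5.25% of all protein-coding genes with a promoter-class region. The 4 genes with an HSF1 region became 1 with scores of at least 50, 1 within 10 kb and 2 without intergenic regions. For HSF1 the share over all protein-coding genes was not counted under any alternative, so these falls describe no trait of ribosomal protein genes. The median score of all HSF1 regions was 35.9, so both score limits removed most of the whole list. Counting HSF1 regions within 10 kb of an H3K27ac region in place of overlap gave 1 region, against 0. Chosen after seeing the data, a limit of 100 kb with the start on the chromosome of RefSeq left 2 HSF1 genes, and leaving out promoter-class regions that also name another gene, small RNA genes aside, left 26 of 33 genes. The main limits are the lack of replicates and inputs' own values, the unknown depth, and regions of few tags, down to 15 for H3K27ac and 13 for HSF1. A further limit is the deposited false discovery rate, at least 9.09% at the H3K27ac entries of ribosomal protein genes. Among these entries it rose with the score, so scores of at least 100 kept those with the highest rates.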

Other observations

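Several symbols left out by the rule carried regions. The pseudogene RPL13AP20 had 4 H3K27ac regions, among them promoter-class ones of 39 tags at 8.42-fold and 27 tags at 9.54-fold. RPSAP52, an RNA gene that overlaps HMGA2, had 5, the widest 4077 bp with 88 tags at 8.42-fold. RPL13AP5 had 36 tags at 7.69-fold, 342 bp from its start. In the HSF1 list, RPL23AP64 had a promoter-class region of 14 tags at 3.99-fold, at -1036 bp from its start, and its H3K27ac region lay 1375 bp downstream with 31 tags at 4.7-fold. The kinase genes RPS6KA5 and RPS6KB1 had H3K27ac regions, and that of RPS6KB1 was of the promoter class with 62 tags at 5.23-fold. The large-subunit paralog RPL36AL had 19 tags at 6.73-fold, at -566 bp from its start.

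The fold enrichment moved in steps. In 54.7% of H3K27ac regions it was within 0.01 of a whole multiple of 0.561, and in 53% of HSF1 regions of 0.443. Of the 39 promoter-class entries of ribosomal protein genes 13 were on such a step, so equal values, such as the 9.54-fold of RPL41 and RPS27, need not mean equal enrichment.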
